A study of Homo sapiens with 3 samples.

Results

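Aminoacyl-tRNA synthetases join each amino acid to its transfer RNA, the step that supplies both the cytosolic and the mitochondrial ribosomes with charged tRNA. The rule takes genes by symbol and uses no expression value, but the list was drawn up with earlier results of these data known. The list held 36 genes, 20 for enzymes counted as cytosolic and 16 for mitochondrial enzymes. Of these, 33 were measured among the 19775 genes on the arrays, 18 cytosolic and 15 mitochondrial. MARS1, QARS1 and TARS2, which load methionine, glutamine and, in mitochondria, threonine, lay on 3, 1 and 1 probe sets that the annotation gives to several genes, so they have no value here.

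RNA came from T47D, a luminal human breast cancer line whose growth responds to estrogen. The cells spent 4 h in medium with 10% charcoal-stripped serum and were then treated for 3 h. The groups were 0.1% ethanol as vehicle, 1 µM estradiol, and 1 µM ERα17p, a synthetic peptide copied from a stretch of estrogen receptor α. The label gives an ethanol share for the vehicle cells alone. Each group was 1 Affymetrix HG-U133 Plus 2 array, so no value has an error between cultures, and no significance test was possible. Where ± is given, it is the SD of a gene's n probe sets. Deposited values were relative to an unstated baseline for each probe set, and they were taken as log2. They show differences between arrays, not levels, so neither the level of an enzyme nor the presence of luminal markers such as KRT8 and GATA3 could be checked.

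For most amino acids each compartment has its own enzyme, and both sets are encoded in the nucleus. GARS1 and KARS1 serve both compartments through alternative forms, and EPRS1 is a fused enzyme that charges glutamate and proline tRNAs. Several cytosolic enzymes are held with the scaffold proteins AIMP1, AIMP2 and EEF1E1 in the multisynthetase complex. When amino acids run short, uncharged tRNA activates the kinase GCN2, translation of the transcription factor ATF4 increases, and ATF4 induces a set of genes for amino acid supply that includes many cytosolic synthetases. ATF4 binds with C/EBP partners at a composite element often written TGATGNAA.

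The letters of that element are shown first because several cytosolic members carry them at the start of the gene. RefSeq promoter windows (GRCh38.p14), from 250 bases before to 50 after a start site, were found for 30 of the 36 genes. LARS1, VARS1, YARS1, TARS3, AARS2 and VARS2 had no entry. TGATGNAA, searched on both strands as the only motif, occurred in a window of 7 of 16 cytosolic genes (43.8%) and 1 of 14 mitochondrial genes (7.14%), against 4.46% of all 27305 genes in the table. Counted by window, the shares were 33.3% of 21, 5.56% of 18 and 3.62% of 35116. The stretches below run 5′ to 3′ on the gene's strand, with the matching letters in capitals. TTGCATCA is TGATGCAA read on the other strand.
AARS1: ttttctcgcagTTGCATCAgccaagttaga
CARS1: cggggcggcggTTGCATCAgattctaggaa
GARS1: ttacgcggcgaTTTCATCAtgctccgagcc
IARS1: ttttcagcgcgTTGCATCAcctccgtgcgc
MARS1: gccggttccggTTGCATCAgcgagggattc
NARS1: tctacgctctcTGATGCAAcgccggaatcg
TARS1: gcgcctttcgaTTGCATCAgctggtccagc
YARS2: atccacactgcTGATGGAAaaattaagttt

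These stretches lie at chr16:70289675-70289704 (minus strand) for AARS1, chr11:3057407-3057436 (minus) for CARS1, chr7:30594834-30594863 (plus) for GARS1 and chr9:92293692-92293721 (minus) for IARS1. Those of MARS1, NARS1, TARS1 and YARS2 lie at chr12:57488053-57488082 (plus), chr18:57621804-57621833 (minus), chr5:33440956-33440985 (plus) and chr12:32756076-32756105 (minus). The form TGATGCAA itself was found in 6 of 16 cytosolic genes, 0 of 14 mitochondrial genes and 295 of all 27305 genes. By window it was in 28.6% of 21, 0% of 18 and 0.866% of 35116. In CARS1, IARS1, MARS1, NARS1 and TARS1 the match began within 15 bases of the start site, and in AARS1 and YARS2 it began 187 and 197 bases before it. In GARS1 it began 33 bases before it, with the variant read as TGATGAAA on the other strand. A match is a description of letters, not of a bound site.

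The values of the 33 enzymes spread most widely around the deposited baseline on the vehicle array. Since the baseline is set for each probe set in a way that is not known, this spread does not measure differences between enzymes, nor which array departed from a reference state. Over the 18 cytosolic enzymes the value ran from −0.74 to 1.23 on the vehicle array (SD over genes 0.48), from −0.10 to 0.12 on the estradiol array (SD 0.06) and from −0.23 to 0.12 on the ERα17p array (SD 0.11). The 15 mitochondrial enzymes ran from −1.11 to 0.52 (SD 0.46), from −0.24 to 0.37 (SD 0.14) and from −0.16 to 0.20 (SD 0.11). The same held over all 19775 genes, with SDs of 0.37, 0.13 and 0.14. Since each treatment was set against that same array, the comparisons with the vehicle are not independent of each other.

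**Figure D1:**
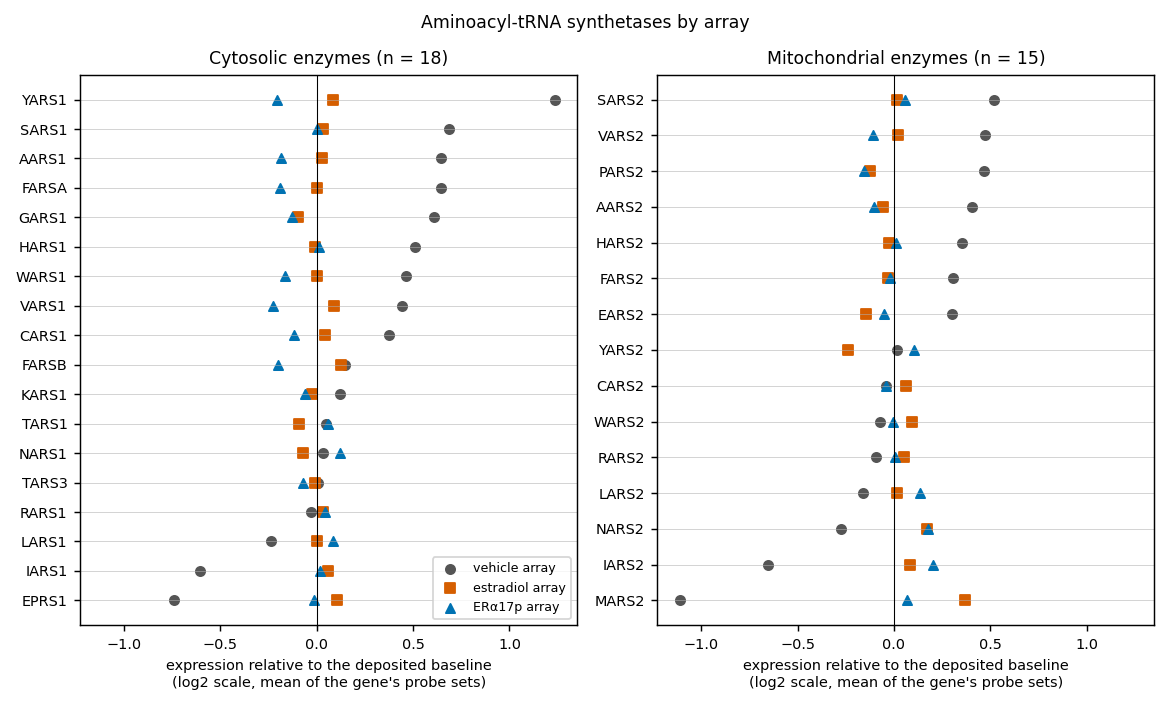
Value of each measured synthetase on the vehicle (circles), estradiol (squares) and ERα17p (triangles) arrays, relative to the deposited baseline on the log2 scale, as the mean of the gene's probe sets, with 18 cytosolic enzymes on the left and 15 mitochondrial ones on the right. The vehicle values spread from −0.74 to 1.23 and from −1.11 to 0.52, while the treated values of the cytosolic enzymes stay between −0.23 and 0.12.

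RNA quality measures moved with the vehicle array. For ACTB, the gap between the 3′ and 5′ probe sets stood at 0.52 there, −0.29 with estradiol and −0.17 with ERα17p, and the 18S probe sets were higher on the treated arrays by 1.87 ± 0.34 and 1.76 ± 0.39 (SD, n = 3). The part of these differences in the results for the synthetases was not tested. As in any bulk sample, fewer cells of a kind and less RNA per cell cannot be told apart.

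With estradiol, most cytosolic synthetases were lower than with vehicle, led by the tyrosine, glycine, serine, phenylalanine and alanine enzymes, while those for glutamate with proline and for isoleucine were higher. Of 18, 14 lay below 0 and 4 above, where 50.6% of all genes lay below 0. At least 1.5-fold lower were 5 (background 8.42% of all genes), and at least 1.5-fold higher were 2 (background 6.48%). The median was −0.24, against −0.00 over all genes.

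YARS1, which charges tyrosine tRNA, stood at 1.23 on the vehicle array, 0.08 with estradiol and −0.20 with ERα17p. Both treated arrays lay far below the vehicle array, and the difference with estradiol was −1.15 ± 0.22 (SD, n = 2), or 2.22-fold. It was the only cytosolic enzyme past 2-fold in this comparison.

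GARS1, the glycine enzyme, read 0.61 with vehicle, −0.10 with estradiol and −0.13 with ERα17p, a difference of −0.71 with estradiol on its single probe set. SARS1, the serine enzyme, read 0.69, 0.03 and 0.00, a difference of −0.65 ± 0.32 (SD, n = 2). FARSA, the catalytic α subunit of the phenylalanine enzyme, read 0.64, −0.00 and −0.19, a difference of −0.64 ± 0.48 (SD, n = 2). In each of these the vehicle value was above both treated values. AARS1, the alanine enzyme, read 0.65, 0.03 and −0.19 and differed by −0.62 on 1 probe set. The FARSA difference with estradiol was −0.30 without its probe set ending in _s_at, short of 1.5-fold.

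FARSB, the β subunit that pairs with FARSA, did not show its partner's size, at 0.15, 0.12 and −0.20 and a difference of −0.02 ± 0.58 (SD, n = 3). Its probe sets ran from −0.67 to 0.44 with estradiol, so the subunit has no settled direction here.

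EPRS1, the fused glutamate and proline enzyme, read −0.74 on the vehicle array, 0.11 with estradiol and −0.02 with ERα17p. Its difference with estradiol was 0.85 ± 0.98 (SD, n = 3), with probe sets at 1.59, 1.21 and −0.27. The probe sets of this gene thus pointed in different directions. IARS1, the isoleucine enzyme, read −0.61, 0.06 and 0.02, a difference of 0.67 on 1 probe set.

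The remaining cytosolic enzymes lay within 1.5-fold with estradiol. HARS1 for histidine, at −0.52, and WARS1 for tryptophan, at −0.46 ± 0.56 (SD, n = 2), were the lowest of these. The probe sets of WARS1 stood at −0.86 and −0.06. VARS1 for valine differed by −0.35 ± 0.90 (SD, n = 2), with probe sets at −0.99 and 0.28. CARS1 for cysteine differed by −0.33 ± 0.78 (SD, n = 4), where 2 probe sets stood at −1.03 and −0.99 and the other two at 0.43 and 0.25. For both genes the mean joins probe sets that disagree. KARS1 for lysine differed by −0.14 ± 0.27 and TARS1 for threonine by −0.14 ± 0.36 (SD, n = 2 each), both with probe sets on both sides of 0. NARS1 for asparagine differed by −0.10, RARS1 for arginine by 0.06 and LARS1 for leucine by 0.24 ± 0.47 (SD, n = 4). TARS3, a second cytosolic threonine enzyme, differed by −0.02 ± 0.19 (SD, n = 2).

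Among the mitochondrial enzymes estradiol went with differences in both directions. Of 15, 8 lay below 0 and 7 above, with 1 at least 1.5-fold lower and 2 at least 1.5-fold higher. The counts below 0 and 1.5-fold lower are near the shares of 50.6% and 8.42% over all genes, and 6.48% of all genes were 1.5-fold higher. The median was −0.26 and the mean −0.01, and the median was −0.06 when probe sets rather than genes were counted. MARS2, which charges methionine tRNA in mitochondria, read −1.11 with vehicle, 0.37 with estradiol and 0.07 with ERα17p. It had the lowest vehicle value of the 33 enzymes, and its difference of 1.48, or 2.78-fold, on 1 probe set was the largest of either set in this comparison.

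IARS2, the mitochondrial isoleucine enzyme, read −0.65, 0.08 and 0.20, a difference of 0.73 with estradiol. NARS2 for asparagine read −0.28, 0.17 and 0.18, a difference of 0.45. Both were low on the vehicle array alone. PARS2 for proline, at 0.47, −0.12 and −0.16, had the opposite order and was the member just past the threshold, at −0.59.

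SARS2 for serine (−0.50), AARS2 for alanine (−0.46 ± 0.11, SD, n = 2), VARS2 for valine (−0.45) and EARS2 for glutamate (−0.45 ± 0.39, SD, n = 4) were lower but within 1.5-fold. HARS2 for histidine stood at −0.38, FARS2 for phenylalanine at −0.34 ± 0.20 (SD, n = 3) and YARS2 for tyrosine at −0.26. These 7 enzymes had vehicle values from 0.02 to 0.52. The others, LARS2 for leucine, WARS2 for tryptophan, RARS2 for arginine and CARS2 for cysteine, lay between 0.11 and 0.18. RARS2, at 0.15 ± 0.33 (SD, n = 6), had its highest probe set at 0.80 and a median over its sets of 0.01. The probe sets of CARS2 ran from −0.42 to 0.45, those of WARS2 from −0.04 to 0.27 and those of LARS2 from 0.12 to 0.24.

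**Figure D2:**
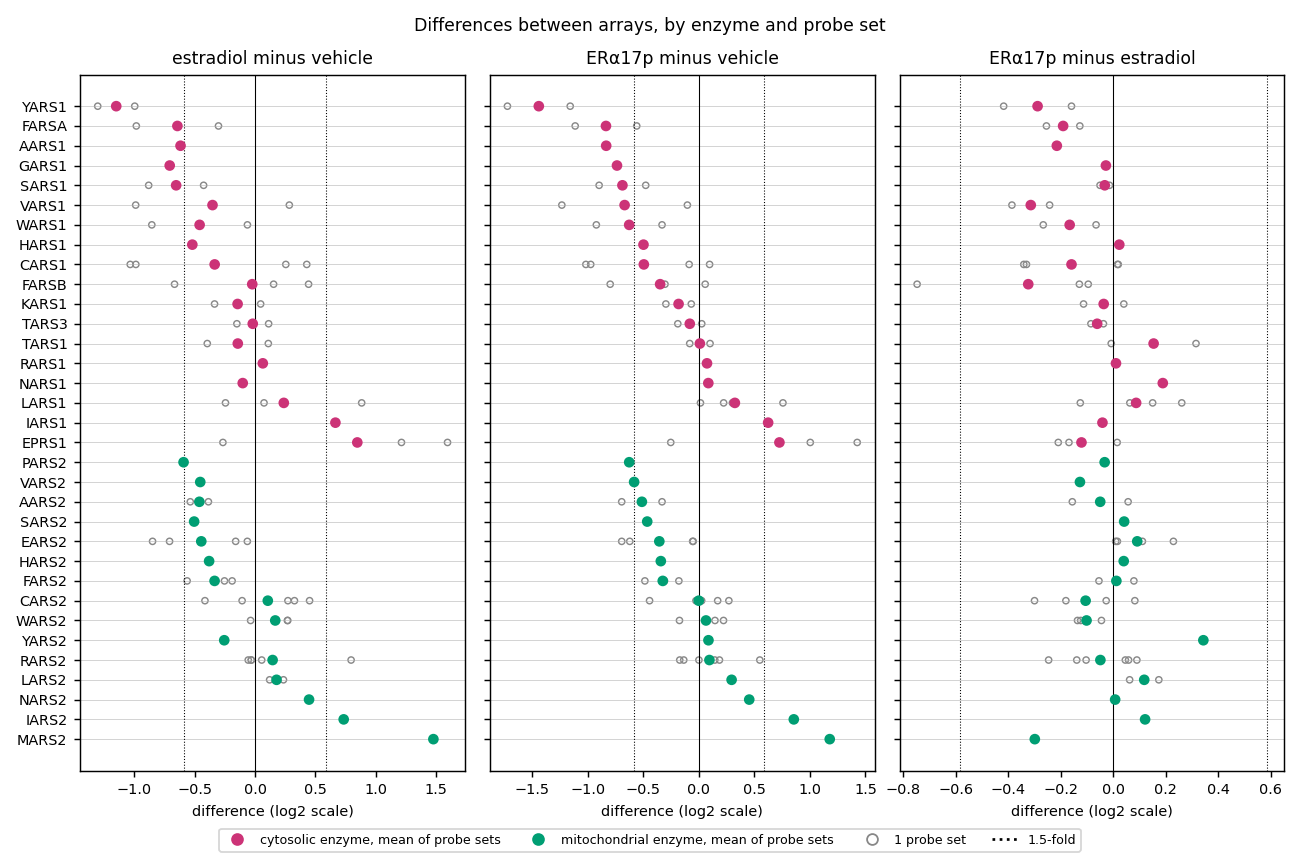
Difference between arrays on the log2 scale for each of 33 synthetases, as the mean of its probe sets (filled, cytosolic above and mitochondrial below) and for each probe set of genes with several (open), with dotted lines at 1.5-fold. YARS1 lies lowest against the vehicle, at −1.15 and −1.44, MARS2 highest, at 1.48 and 1.18, and no enzyme passes 1.5-fold between ERα17p and estradiol.

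With ERα17p the cytosolic synthetases were lower than with vehicle in 12 of 18 cases (49.9% of all genes lay below 0), and 7 were at least 1.5-fold lower (background 8.76%) against 2 higher (background 6.88%). The median was −0.42, against 0.00 over all genes, and −0.22 over the 36 probe sets of these enzymes. Beside YARS1, at −1.44 ± 0.40 (SD, n = 2) or 2.71-fold, these were AARS1 and FARSA, at −0.83 each, GARS1 at −0.74, SARS1 at −0.69, VARS1 at −0.67 and WARS1 at −0.63. The SD over probe sets of VARS1, 0.80, was larger than its difference. Without probe sets open to cross-hybridisation, whose identifiers end in _x_at or _s_at, 13 cytosolic enzymes were left, and FARSA stood at −0.56. Of the 13, 4 were at least 1.5-fold lower and 0 higher, and the share over all genes so restricted was not computed.

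VARS1 read 0.44 on the vehicle array, 0.09 with estradiol and −0.23 with ERα17p, and WARS1 read 0.46, 0.00 and −0.16. In both the ERα17p array was the lowest. HARS1 stood at −0.50 and CARS1 at −0.49 ± 0.58 (SD, n = 4). FARSB stood at −0.35 ± 0.43 (SD, n = 3), or at 0.06 on the probe set left without those open to cross-hybridisation. EPRS1 was higher by 0.73 ± 0.87 (SD, n = 3) and IARS1 by 0.62. LARS1 stood at 0.32 ± 0.31 (SD, n = 4), and KARS1, TARS3, TARS1, RARS1 and NARS1 lay between −0.18 and 0.09.

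Of the 15 mitochondrial enzymes 8 lay below 0 with ERα17p (49.9% of all genes did) and 7 above. The median, −0.00, was the value of CARS2, with FARS2 next below it at −0.32. With estradiol the median was the value of YARS2, −0.26, which stood at 0.09 with ERα17p. The mean was −0.01 in both comparisons. Of the 15, 1 passed 1.5-fold on the lower side and 2 on the upper. All these counts were the same as with estradiol. The count on the lower side is near the background of 8.76%, and the background on the upper side was 6.88%. MARS2 was higher by 1.18 (2.26-fold) and IARS2 by 0.86, while PARS2 stood at −0.63. VARS2 lay just inside 1.5-fold, at −0.58, and AARS2 stood at −0.51 ± 0.26 (SD, n = 2) and SARS2 at −0.46. EARS2, HARS2 and FARS2 lay between −0.35 and −0.32. NARS2, at 0.45, and LARS2, at 0.30, were on the other side, and CARS2, WARS2, YARS2 and RARS2 lay between −0.00 and 0.10.

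Between the ERα17p and estradiol arrays 0 of the 33 synthetases differed by 1.5-fold, where 0.521% of all genes were that much higher with ERα17p and 0.607% lower. With 1 array each, this does not show that the agents act alike. Of the cytosolic enzymes 13 of 18 lay below 0, with a median of −0.05, and of the mitochondrial ones 7 of 15, with a median of 0.01. Over all genes 48.4% lay below 0 and the median was 0.01.

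The cytosolic enzymes lowest in ERα17p relative to estradiol were FARSB, at −0.32 ± 0.37 (SD, n = 3), VARS1, at −0.31 ± 0.10 (SD, n = 2), YARS1, at −0.29 ± 0.18 (SD, n = 2), and AARS1, at −0.22. One FARSB probe set, ending in _x_at, stood at −0.75. FARSB was at −0.10 without sets open to cross-hybridisation and at −0.13 as the median of its sets, so its rank depended on that set. Both probe sets of VARS1 and of YARS1 were below 0 in this comparison. NARS1, at 0.19, and TARS1, at 0.15 ± 0.23 (SD, n = 2), were on the other side. The mitochondrial enzymes ran from −0.30 for MARS2 to 0.34 for YARS2, which read 0.02 with vehicle, −0.24 with estradiol and 0.10 with ERα17p. In YARS2 the estradiol value lay below both others.

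For 14 amino acids both the cytosolic and the mitochondrial enzyme were measured, with EPRS1 serving for glutamate and for proline. In the comparison of estradiol with vehicle the cytosolic enzyme was below its mitochondrial partner for 9 and above it for 5, with a median gap of −0.11. With ERα17p it was below for 11 and above for 3, with a median gap of −0.23. Set medians gave a gap of 0.02 with estradiol and −0.42 with ERα17p, and the gap of the means was −0.21 and −0.30. With estradiol the sign thus depended on the summary. With ERα17p the size did, since the gap over probe sets was −0.17.

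The tyrosine pair was furthest apart on the lower side. YARS1 lay below YARS2 by −0.89 with estradiol and −1.53 with ERα17p. For tryptophan, WARS1 stood at −0.46 and WARS2 at 0.17 with estradiol, and the gap was −0.63 there and −0.69 with ERα17p. For asparagine, the gap between NARS1 and NARS2 was −0.55 and −0.37, and for cysteine that between CARS1 and CARS2 was −0.44 and −0.49. On the upper side, EPRS1 exceeded PARS2 by 1.44 and 1.35 and EARS2 by 1.29 and 1.08, both resting on the EPRS1 probe sets that disagree.

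In several other pairs both enzymes lay on the same side of 0. Both isoleucine enzymes were higher and differed from each other by −0.07 with estradiol and −0.23 with ERα17p. Both serine enzymes were lower, with gaps of −0.15 and −0.22, as were both alanine enzymes (−0.16 and −0.32) and both histidine enzymes (−0.14 and −0.16). The gaps of the arginine and leucine pairs ran from −0.08 to 0.06.

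**Figure D3:**
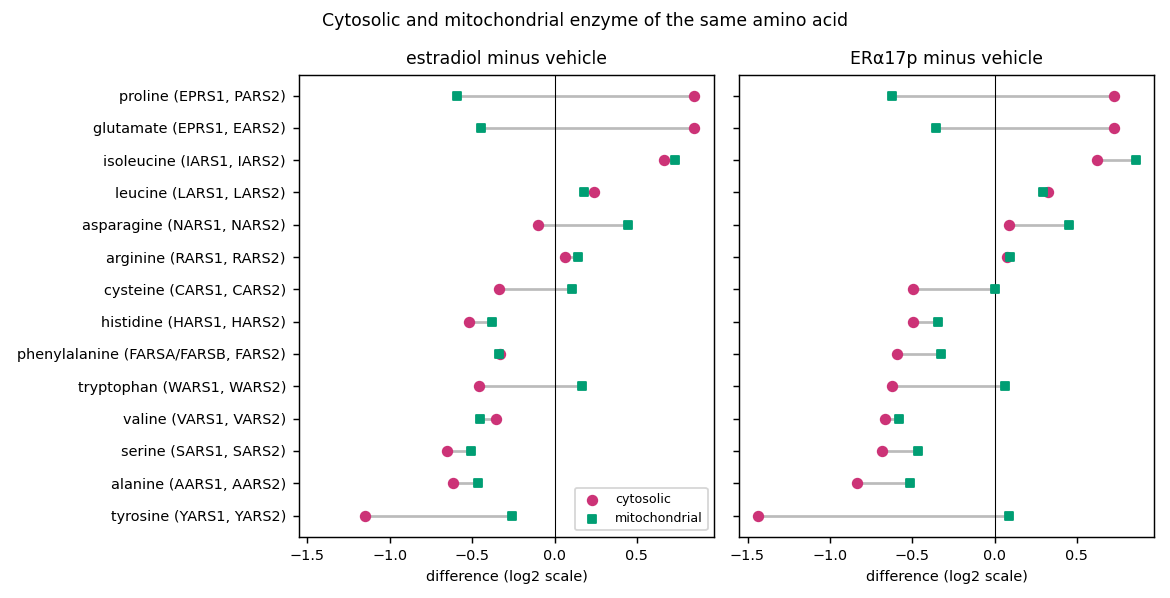
Difference from the vehicle array on the log2 scale for the cytosolic (circles) and mitochondrial (squares) enzyme of each of 14 amino acids, with a line joining the pair. The tyrosine pair is apart by −0.89 and −1.53, both isoleucine enzymes lie above 0 and both serine enzymes below, and EPRS1 lies above both of its mitochondrial partners.

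Within the cytosolic set, members of the multisynthetase complex and the enzymes outside it lay mostly on different sides of 0. Of the 7 complex enzymes listed, 5 were measured, EPRS1, IARS1, LARS1, RARS1 and KARS1. With estradiol 4 of them lay above 0, the exception being KARS1, with a median of 0.24, and with ERα17p again 4, with a median of 0.32. All 13 enzymes outside the complex lay below 0 with estradiol (50.6% of all genes did), from −1.15 to −0.02. Their median was −0.46, and 5 were at least 1.5-fold lower (background 8.42%). Of these 13, CARS1, FARSB, TARS1, VARS1 and TARS3 had probe sets on both sides of 0 with estradiol. In the complex, so did EPRS1, LARS1 and KARS1. With ERα17p 11 of the 13 outside the complex lay below 0 (49.9% of all genes did). Their median was −0.63, and 7 were at least 1.5-fold lower (background 8.76%). AIMP1, a scaffold of the complex, read −0.30 with vehicle, 0.10 with estradiol and 0.09 with ERα17p. It differed by 0.40 ± 0.15 with estradiol and 0.38 ± 0.24 with ERα17p (SD, n = 3). AIMP2 and EEF1E1 were listed but have no value here. EPRS1, IARS1 and LARS1 rested on probe sets ending in _s_at or _x_at alone. Without such sets KARS1 stood at 0.05 and RARS1 at 0.06 with estradiol. FARSB and TARS3, at −0.02 each among the 13, stood at 0.15 and 0.11 without them, on the other side of 0. With ERα17p the same omission left KARS1 at −0.07, RARS1 at 0.07, FARSB at 0.06 and TARS3 at 0.03.

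The enzymes also divide by fold into class I and class II, which bind ATP with unrelated active sites. EPRS1 joins a domain of each class and was left out of these counts. Of 10 cytosolic class II enzymes 10 lay below 0 with estradiol, FARSB and TARS3 at −0.02 each, with a median of −0.33. With ERα17p 8 did, with a median of −0.42. Over all genes 50.6% and 49.9% lay below 0. Of 7 cytosolic class I enzymes, 4 lay below 0 in each comparison, with medians of −0.33 and −0.49. Those above 0, IARS1, LARS1 and RARS1, all belong to the multisynthetase complex, and of the class II enzymes KARS1 alone does. The divisions by class and by complex thus overlap, and their counts are not separate results. Both the lowest member, YARS1, and IARS1 belong to class I.

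Synthetases often listed as ATF4 targets included both the lowest and the highest cytosolic members. Of 11 measured, 4 were at least 1.5-fold lower and 2 higher with estradiol (background 8.42% and 6.48%), with a median of −0.33. With ERα17p these counts were 5 and 2 (background 8.76% and 6.88%), with a median of −0.49. Of the 7 other cytosolic enzymes, 1 and 2 were at least 1.5-fold lower, with medians of −0.14 and −0.35. The cytosolic genes with TGATGNAA in a promoter window had medians of −0.24 with both agents over 6 measured genes, from −0.71 for GARS1 to 0.67 for IARS1 with estradiol. The 8 measured genes whose windows lacked it had medians of −0.30 and −0.42. Genes with these letters thus included low, near-zero and high members. All 7 cytosolic genes with the letters are also among those often listed as ATF4 targets. The divisions by list and by letters thus overlap and are not separate results.

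Genes of the ATF4 response other than synthetases were lower by more. All 25 listed were measured, and 15 were at least 1.5-fold lower and 1 higher with estradiol (background 8.42% and 6.48%), with a median of −0.78. With ERα17p 16 were lower and 0 higher (background 8.76% and 6.88%), with a median of −0.89. Of the 25, 19 and 20 lay below 0 with estradiol and ERα17p (50.6% and 49.9% of all genes did). The 6 and 5 above 0 included STC2, at 1.09 ± 0.47 and 0.39 ± 0.22 (SD, n = 2). ATF4 itself read 1.03, −0.12 and −0.19, a difference of −1.15 with estradiol and −1.22 with ERα17p on 1 probe set. ASNS, which makes asparagine, stood at −0.78 ± 0.66 and −0.96 ± 0.63 (SD, n = 2). DDIT3, a stress transcription factor, read 2.82, −0.09 and −0.18 and differed by −2.92 and −3.00. In ATF4, ASNS and DDIT3, as in YARS1, the vehicle value was above both treated values.

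Cytosolic translation factors and mitochondrial ribosomal proteins lay nearer to 0, beside background shares of 8.42% and 8.76% lower and 6.48% and 6.88% higher for estradiol and ERα17p. The 24 measured cytosolic translation factors had medians of −0.12 with estradiol and −0.09 with ERα17p, with 2 and 3 at least 1.5-fold lower and 1 higher in each. EIF3B, an initiation factor subunit, was lowest, at −0.79 ± 0.35 and −0.997 ± 0.45 (SD, n = 6). Mitochondrial ribosomal proteins, 75 of them, had medians of −0.14 and −0.18, with 8 and 7 at least 1.5-fold lower and 5 higher in each, among them MRPS2 at −0.91 and −1.12.

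Partners of the mitochondrial enzymes had medians of 0.06 and 0.08 over 12 genes. GATC, a subunit of the amidotransferase that makes mitochondrial glutaminyl-tRNA from the glutamate-loaded tRNA that EARS2 provides, stood at −0.57 ± 0.01 and −0.57 ± 0.29 (SD, n = 2). GFM1, a mitochondrial elongation factor, stood at 0.67 ± 0.72 and 0.58 ± 0.71 (SD, n = 6). Of 20 tRNA processing and export genes, 15 lay below 0 in each comparison (50.6% and 49.9% of all genes did). Their medians were −0.21 and −0.25, and 2 and 6 were at least 1.5-fold lower and 1 higher in each (background 8.42% and 8.76% lower, 6.48% and 6.88% higher). This list shares a gene with that of the ATF4 response. TRMT61A, which methylates tRNA, stood at −0.89 ± 0.23 and −1.11 ± 0.11 (SD, n = 3), PUS1, a pseudouridine synthase, at −0.81 and −1.03, and TRNT1, which adds the CCA end that synthetases charge, at 1.01 ± 0.70 and 0.78 ± 0.61 (SD, n = 3).

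**Figure D4:**
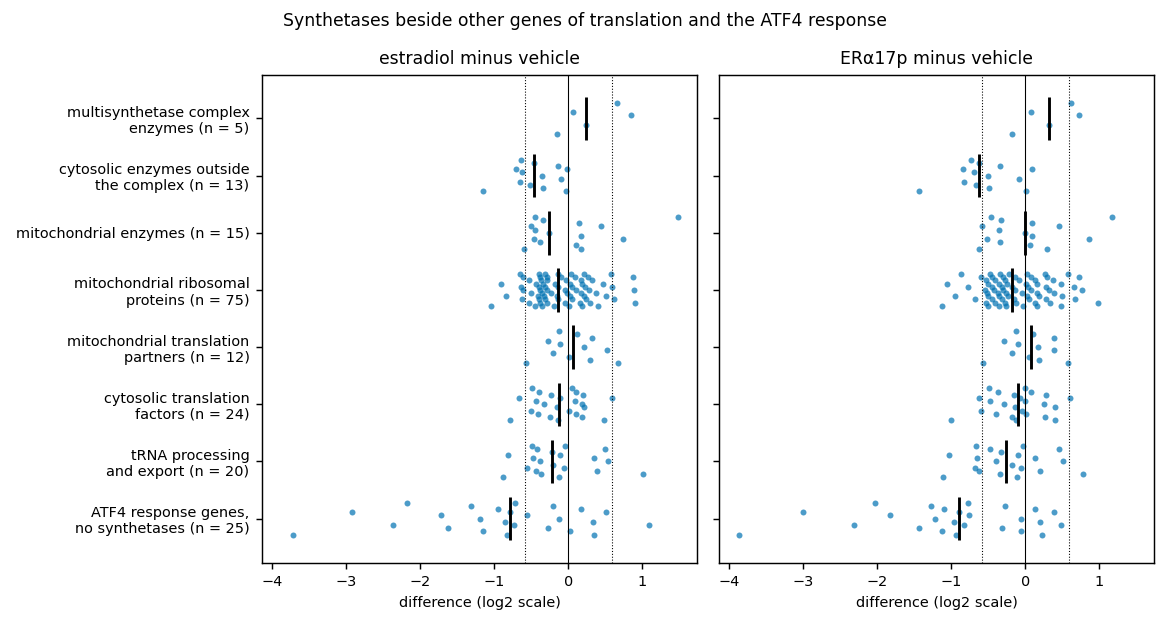
Difference from the vehicle array on the log2 scale for each gene (points) and the median (bar) of 8 groups, with estradiol on the left and ERα17p on the right and dotted lines at 1.5-fold. Medians are 0.24 and 0.32 for the multisynthetase complex enzymes, −0.46 and −0.63 for the other cytosolic enzymes and −0.78 and −0.89 for ATF4 response genes.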

How the data were processed

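The deposited values, taken here as log2, were made by the authors with RMA, per the submitters' processing notes. No version, centring method, baseline or log base was found in the labels. Depth has no equivalent here, and signal over background is unknown. Of 54675 probe sets, 62 were controls, and 41091 of the rest had 1 gene symbol in the platform annotation. A gene's value was the mean of its probe sets, for 19775 genes. The measured members had 69 probe sets, 14 members having 1 each. Each comparison was a difference between 2 arrays, and a gene was counted at 1.5-fold or more (0.585 on the log2 scale). With 1 array per group no test was run. The number of arrays limits the precision. The members and gene lists were chosen with earlier results of these data known. Every member was named, and of other lists at most 4 genes with the largest difference in a comparison, together with ATF4, DDIT3, ASNS and AIMP1. Gene computations were tested on simulated data. Alternatives were other thresholds, centring, probe set choices, the list mean, and cytosolic sets without GARS1 and KARS1 or without TARS3. Python 3.11.15, numpy 2.4.6, pandas 2.3.3 and matplotlib 3.10.9 were used.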

Additional observations from a re-analysis of the deposited data

How the results depend on the processing

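No paired analysis was possible because each group had 1 array, and setting the vehicle array aside leaves ERα17p minus estradiol alone. Of the results for the sets of enzymes under the alternatives, 118 stayed within 1.5 times their count or, for a median, within the typical SD over probe sets, and 23 counts did not. At a threshold of 25% in place of 1.5-fold, 9 cytosolic enzymes were lower with estradiol and 7 mitochondrial enzymes were lower with each agent, and between the agents 1 cytosolic enzyme was lower and 1 mitochondrial enzyme higher. Over all genes 19.8% and 19.2% were that much lower with estradiol and ERα17p, and between the agents 4.01% were lower and 4.67% higher. At 2-fold, 1 cytosolic enzyme was lower and 0 higher with each agent, and 0 mitochondrial enzymes were lower and 1 higher, against 1.63% and 1.87% of all genes lower and 1.57% and 1.9% higher. Once sets ending in _x_at or _s_at were dropped, which leaves fewer cytosolic enzymes (13), 0 were higher with either agent and 4 were lower with ERα17p. Counted as probe sets, 11 of 36 cytosolic sets were lower and 4 higher with each agent, and 1 was lower between the agents. Of 33 mitochondrial sets, 3 and 4 were lower and 3 and 2 higher with estradiol and ERα17p. Shares over all probe sets, or over the 17098 genes left without sets ending in _x_at or _s_at, were not computed. These counts therefore have no background beside them. The gap between cytosolic and mitochondrial medians with estradiol, 0.02, was −0.02 with those sets dropped, −0.14 over probe sets, −0.21 for means and −0.08 without TARS3. The mitochondrial median with ERα17p was 0.03 when probe sets were joined by their median. The gap of −0.42 with ERα17p stayed below 0 under every alternative run, from −0.49 without TARS3 to −0.17 over probe sets. Centring on the median of all genes changed no count. For single enzymes, WARS1 with estradiol passed 1.5-fold on its remaining probe set, at −0.86. Except where the number of features differs, the cause was not tested. The SD over probe sets of several members exceeds their difference, and no value has an error between cultures.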
